A study of Mus minutoides with 4 samples.

Results

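The enzymes that write and erase methyl and acetyl groups on histone lysines were compared between induced pluripotent stem cells (iPSCs) and fibroblasts of *M. minutoides*, the African pygmy mouse. The genes were chosen by name among the protein-coding genes of the deposited tables, as the families *Kdm*, *Kmt*, *Setd*, *Nsd*, *Suv39h*, *Ehmt*, *Hdac*, *Sirt* and *Kat* followed by a number, with *Kdm5d* left out. This gave 66 genes of 41325 in the tables, namely 23 methyltransferases, 17 demethylases, 8 acetyltransferases and 18 deacetylases. The iPSC lines 6 and 10 were made from tail-tip fibroblasts by electroporation of doxycycline-inducible reprogramming factors (*Oct3/4*, *Klf4*, *Sox2*, *c-Myc*, *Glis1*, *Nanog* and *Lin28a*, of which *Glis1* was cloned from *M. musculus*), with a vector for rtTA and EGFP driven by CAG, and were kept without doxycycline in 2i medium on mitomycin C-treated mouse embryonic fibroblasts. Fibroblast lines 1 and 2 were not reprogrammed and grew in medium with serum. Each iPSC line came from a single colony, and there was 1 RNA-seq library per line, so n = 2 in each group. Since medium and feeders differed together with the cell type, their effects cannot be told apart.

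Methyltransferases and demethylases set the methylation of lysines on the tails of histones H3 and H4, whose meaning depends on the lysine: methylation of H3K4 marks active promoters and enhancers, that of H3K36 transcribed gene bodies, and that of H3K9, H3K27 and H4K20 silent or compact chromatin. Acetyltransferases open chromatin by acetylating lysines, and deacetylases remove the acetyl group, the HDACs with a zinc ion (classes I, II and IV) and the sirtuins with the cofactor NAD. In pluripotent stem cells of the laboratory mouse these enzymes keep developmental genes poised and are known to affect how readily fibroblasts are reprogrammed. Several of the proteins also act on substrates other than histones.

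Exon reads numbered 36694828 and 33858709 for iPSC lines 6 and 10, against 33546022 and 33084850 for fibroblast lines 1 and 2, placed on the *M. musculus* build GRCm38. Levels are given as the authors' TPM (transcript abundance corrected for sequencing depth and for exon length). Exon reads were scaled with TMM factors and tested with edgeR (quasi-likelihood test), and called genes are those with a fold over 2 and a Benjamini-Hochberg adjusted p, taken over 17777 genes, under 0.05. Summed TPM of 8 pluripotency markers was 6006 and 6701 in the iPSC lines and 1.12 and 1.43 in the fibroblast lines. Summed TPM of 10 fibroblast markers was 7095 and 3582 in iPSC lines 6 and 10 (28.2% and 14.2% of the fibroblast mean), with no marker under 1 TPM, and 22931 and 27462 in the fibroblast lines. Most of this sum was collagen, and single markers departed from it: *Dcn* had 374 and 119.5 TPM in iPSC lines 6 and 10, against 108 and 129.7 TPM in the fibroblast lines, and *Lum* had 478 and 68.1 TPM, against 451 and 541 TPM. For 6 macrophage markers the sums were 239.9 and 574 TPM in iPSC lines 6 and 10, with *Ptprc* under 1 TPM in both, and 1.69 and 2.15 TPM in the fibroblast lines, where *Lyz2*, *Adgre1* and *Tyrobp* were at 0. Summed TPM of 6 proliferation markers was 710.5 and 796 in the iPSC lines and 415 and 431 in the fibroblast lines, although *Mki67* was called lower (51.8 and 63.2 TPM in iPSCs, against 108 and 112 TPM in fibroblasts). The part of these RNAs in the results was not tested, and fewer cells of a type and less RNA per cell cannot be told apart in such bulk samples.

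The enzymes were widely expressed in both cell types. Of the 66 genes, 64 (97.0%) had at least 1 TPM in every library, compared with 52.5% of protein-coding genes, and 52 had at least 10 TPM in every library. The exceptions below 1 TPM were *Kdm4d*, a demethylase known mainly from testis (0.48 and 0.414 TPM in iPSCs, against 0.188 and 0 TPM in fibroblasts), and *Hdac9*, a class IIa deacetylase (1.11 and 1.06 TPM in iPSCs, 0.887 and 0.986 TPM in fibroblasts). Their edgeR adjusted p values were 0.14 and 0.74. The summed TPM of all 66 genes was 3392 and 3419 in iPSC lines 6 and 10, against 2391 and 2631 for fibroblast lines 1 and 2. All 66 genes passed the filter on low counts.

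Between the cell types, 13 enzymes were higher and 13 lower in iPSCs, and 40 were not called. The most strongly upregulated were *Kdm2b* and *Sirt1*, and the most strongly downregulated was *Hdac7*. The share called was 39.4%, below the 49.5% of all genes tested, with 19.7% higher (27.2% of all genes) and 19.7% lower (22.4% of all genes). The difference to all genes lay in the size of the changes rather than in how often they passed the test. Without the fold threshold, 48 enzymes (72.7%) passed the adjusted p, 27 higher and 21 lower, against 70.8% of all genes, and 22 of these 48 changed by less than 2-fold. A called change of more than 4-fold was found for 3 enzymes (4.55%) and for 27.9% of all genes. The median absolute log2 fold change was 0.81 for the enzymes and 1.1 for all genes tested, with median standard errors of 0.09 and 0.2. The enzymes were more widely expressed (97.0% at 1 TPM or more in every library, against 52.5% of protein-coding genes). All genes were not matched to them by expression level, and the part of that level in these differences was not tested. The TPM of both iPSC lines lay above both fibroblast lines for 38 enzymes (48.7% of all genes) and below them for 20 (37.8% of all genes). The groups overlapped for 8, and the share of enzymes without overlap was near the 86.5% of all genes. This background share applies wherever groups are said to be apart below, and called genes were picked by fold and adjusted p.

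**Figure D1:**
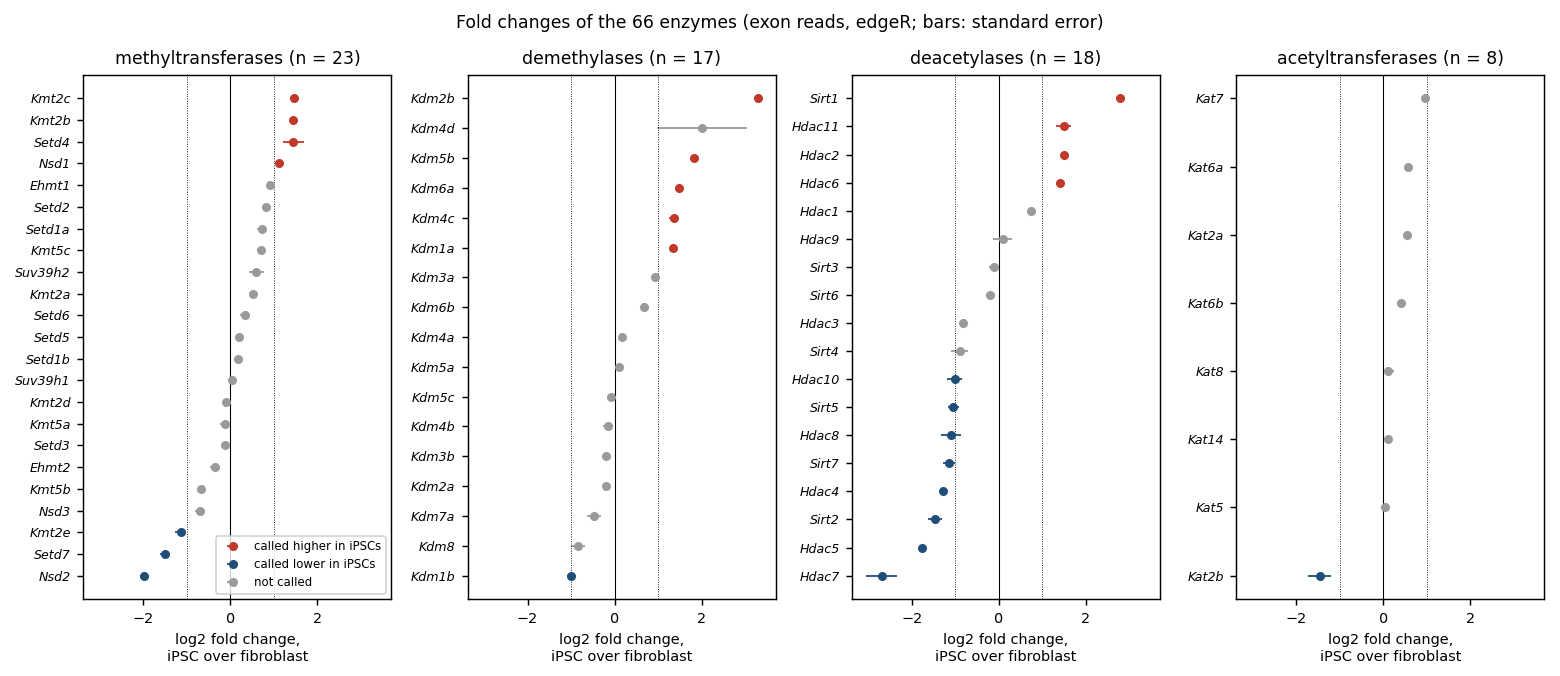
Log2 fold change on exon reads (iPSC over fibroblast) of each of the 66 enzymes, by kind of enzyme, with bars for the standard error from edgeR and dotted lines at a fold of 2. The 13 red points are called higher and the 13 blue points called lower in iPSCs, with *Kdm2b* at 3.30 and *Hdac7* at -2.69 as the most distant called genes. The grey point with a long bar is *Kdm4d*, which had 0 to 15 exon reads per library.

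The balance of higher and lower calls depended on how the libraries were scaled. Without TMM factors 19 enzymes were higher and 7 lower (32.5% and 17.1% of all genes), and with upper-quartile factors 16 were higher and 7 lower (30.3% and 19.0% of all genes). These scalings moved the median log2 fold change of all genes up by 0.29 and 0.18, so that small changes near 0 took another sign while changes relative to other genes stayed. TPM, with the sums and counts made from it, carries no TMM factors either. It can stand higher in iPSCs than the tested folds do. *Kmt2d* had a log2 fold change of -0.09 in the edgeR test and 0.04 with limma on log2(TPM + 1). On gene reads, which add intron reads, 14 enzymes were higher and 12 lower (23.6% and 21.1% of all genes). No called enzyme changed sign under any of the 17 alternatives tried, and 17 of the 26 kept their call under each of them, 11 higher and 6 lower. The lower calls lost most often were those of *Hdac10*, *Hdac8*, *Kdm1b* and *Sirt5*, whose folds were near the threshold. These 4 and the calls of *Kmt2e* and *Sirt7* were lost without TMM factors, at log2 fold changes from -0.72 to -0.86, and with upper-quartile factors, at -0.83 to -0.96.

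Among the H3K4 methyltransferases, *Kmt2b* and *Kmt2c* were upregulated and *Kmt2e* and *Setd7* downregulated. *Kmt2b* (MLL2), the enzyme that methylates H3K4 at bivalent promoters of developmental genes in mouse embryonic stem cells, was expressed at 108 and 114 TPM in iPSC lines 6 and 10, against 35.1 and 39.5 TPM in fibroblast lines 1 and 2. Its log2 fold change was 1.45 (standard error 0.07, edgeR adjusted p = 0.00028). *Kmt2a* (MLL1), the closest relative of *Kmt2b*, had 48 and 48.3 TPM in iPSCs and 29.9 and 30.9 TPM in fibroblasts, a change within 2-fold (log2 fold change 0.53, standard error 0.07, edgeR adjusted p = 0.0034). Both genes had the groups apart, and *Kmt2a* made up 30.7% and 29.7% of the summed TPM of this pair in iPSCs and 46% and 43.9% in fibroblasts.

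The enhancer enzymes *Kmt2c* (MLL3) and *Kmt2d* (MLL4) differed from each other. *Kmt2c* had 50.5 and 55 TPM in iPSCs, against 17 and 17.7 TPM in fibroblasts, which gave a log2 fold change of 1.47 (standard error 0.08, edgeR adjusted p = 0.00034). For *Kmt2d* the values were 47.4 and 51.4 TPM in iPSCs and 46.8 and 49 TPM in fibroblasts, so the groups overlapped (log2 fold change -0.09, standard error 0.08, edgeR adjusted p = 0.35, and 0.20 without TMM factors). *Kmt2c* thus held 51.6% and 51.7% of the pair's TPM in iPSCs, against 26.7% and 26.5% in fibroblasts. By TPM the more abundant gene of the pair was not the same in the cell types, by a narrow margin in iPSCs.

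*Kmt2e* (MLL5), a relative with no clear methyltransferase activity, had 28.4 and 24 TPM in iPSCs, against 51.5 and 54.2 TPM in fibroblasts (log2 fold change -1.14, standard error 0.12, edgeR adjusted p = 0.0014). *Setd7*, which adds a single methyl group to H3K4 and to many other proteins, had 17.7 and 15.6 TPM in iPSCs and 40.5 and 46.4 TPM in fibroblasts (log2 fold change -1.51, standard error 0.10, edgeR adjusted p = 0.00049). Both genes were lower in each iPSC line than in either fibroblast line, but *Kmt2e* was within 2-fold without TMM factors (-0.86) and with upper-quartile factors (-0.96). *Setd1a* and *Setd1b*, the catalytic subunits of the SET1 complexes, were within 2-fold, at 91.3 and 91.9 TPM in iPSCs and 51.7 and 49.5 TPM in fibroblasts for *Setd1a*. Only 41.1% to 42.6% of the exon reads of *Setd1a* were placed uniquely in a library, and its log2 fold change was 0.72 on all exon reads and 0.71 on unique ones.

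The H3K36 methyltransferases moved in opposite directions. *Nsd1*, the Sotos syndrome gene in humans, whose product adds up to 2 methyl groups to H3K36, had 82.3 and 98.5 TPM in iPSCs, against 36.7 and 38.9 TPM in fibroblasts (log2 fold change 1.13, standard error 0.10, edgeR adjusted p = 0.001). Its call was lost without iPSC line 10, where the log2 fold change was 1.00. *Nsd2* (*WHSC1*), which makes the same mark, had 6.02 and 6.35 TPM in iPSCs, against 22.1 and 22.7 TPM in fibroblasts (log2 fold change -1.99, standard error 0.08, edgeR adjusted p = 0.00022). This was the strongest decrease of any methyltransferase here. *Nsd3* had 17.4 and 15 TPM in iPSCs and 24 and 23.8 TPM in fibroblasts, a change within 2-fold (log2 fold change -0.69, standard error 0.12, edgeR adjusted p = 0.0066). *Setd2*, the enzyme that places the last methyl group on H3K36 behind the polymerase, had 87.7 and 92.4 TPM in iPSCs and 45.4 and 48.5 TPM in fibroblasts (log2 fold change 0.81, standard error 0.07, edgeR adjusted p = 0.00087). Of the summed TPM of *Nsd1* and *Nsd2*, *Nsd1* held 93.2% and 93.9% in iPSCs, against 62.4% and 63.1% in fibroblasts.

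Of these enzymes, none of the 4 H3K9 or 3 H4K20 methyltransferases was called on exon reads with edgeR or DESeq2, and limma on log2 TPM called 1, which was higher. Over all genes, edgeR called 49.5% in either direction. At an unadjusted p under 0.05 with no fold threshold, 2 H3K9 enzymes were higher and 1 lower, as were 1 and 1 of the H4K20 enzymes. *Ehmt2* (G9a) and *Ehmt1* (GLP) form a dimer that methylates H3K9 in euchromatin. *Ehmt2*, the most abundant of the H3K9 enzymes, had 129 and 108 TPM in iPSCs and 129.6 and 147 TPM in fibroblasts (log2 fold change -0.35, standard error 0.12, edgeR adjusted p = 0.05), and *Ehmt1* had 51.7 and 54.7 TPM in iPSCs and 24.2 and 27.1 TPM in fibroblasts, just under the fold threshold at a log2 fold change of 0.92. *Ehmt1* was past the threshold without TMM factors (1.21) and with upper-quartile factors (1.10). *Kmt5a*, the most abundant H4K20 enzyme, which adds the first methyl group during the cell cycle, had 72.9 and 88.9 TPM in iPSCs and 76.7 and 83.6 TPM in fibroblasts. Its groups overlapped (log2 fold change -0.12, standard error 0.11, edgeR adjusted p = 0.38, and 0.17 without TMM factors).

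*Suv39h2*, which methylates H3K9 in heterochromatin, was the only enzyme called in opposite directions on different kinds of read. The gene lies on chromosome 2 from 3455815 to 3475031 of GRCm38 on the minus strand, and had 9.85 and 12.2 TPM in iPSC lines 6 and 10, against 6.83 and 6.4 TPM in fibroblast lines 1 and 2 (log2 fold change 0.60, standard error 0.18, edgeR adjusted p = 0.037, within 2-fold). It had 925 and 979 intron reads in iPSCs and 16 and 17 in fibroblasts, which was 66.1% and 64.2% of its reads in iPSCs and 5.41% and 6.56% in fibroblasts. With these included it was called higher, at a log2 fold change of 1.91 on gene reads (edgeR adjusted p = 0.00057). Reads across exon-exon junctions, which come from spliced RNA, numbered 13 and 24 in iPSCs and 43 and 50 in fibroblasts. On these, an alternative chosen after seeing the data, *Suv39h2* was called lower (log2 fold change -1.52, edgeR adjusted p = 0.029). A gene on the opposite strand, *Gm13184*, lies within its body from 3468613 to 3474546 and had 530 and 693 exon reads in iPSCs and 0 and 0 in fibroblasts. Another gene on the opposite strand, *Dclre1c*, overlaps its other end (3424131 to 3464130) and was called lower, with 346 and 318 exon reads in iPSCs and 699 and 791 in fibroblasts. The sources do not say that strand was used in counting, and the part of *Gm13184* and *Dclre1c* in the reads of *Suv39h2* was not tested. Its paralog *Suv39h1* had 39.3 and 41.2 TPM in iPSCs and 34.5 and 36.5 TPM in fibroblasts (log2 fold change 0.05) and was not called on any kind of read.

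Of the other SET domain proteins, *Setd4* was the only upregulated gene. It had 7.96 and 10.6 TPM in iPSCs, against 2.56 and 3.68 TPM in fibroblasts (log2 fold change 1.45, standard error 0.24, edgeR adjusted p = 0.0056), with 468 and 578 exon reads in iPSCs and 128 and 170 in fibroblasts, where 128 was the lowest count of a called enzyme in any library. The groups did not overlap, and the call was lost under 1 of the 17 alternatives. *Setd5*, a chromatin regulator and the most abundant of this class over all libraries, had 44.8 and 46.9 TPM in iPSCs and 35.2 and 38.5 TPM in fibroblasts (log2 fold change 0.19, standard error 0.07, edgeR adjusted p = 0.059). *Setd3*, an actin histidine methyltransferase, had overlapping groups, and *Setd6*, which methylates the NF-kB subunit RelA, had a log2 fold change of 0.34.

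The demethylases had 5 genes higher and 1 lower of 17, where 27.2% and 22.4% of all genes were called. Their summed TPM, without TMM factors, averaged 966 ± 8.06 in iPSCs and 562 ± 49.4 in fibroblasts (SD, n = 2 each), a ratio of 1.72. *Kdm2b*, on chromosome 5 from 122870665 to 122989823, had the largest called change of all 66 enzymes. Its protein binds unmethylated CpG islands through a CxxC zinc finger, demethylates H3K36 and brings a variant Polycomb complex (PRC1) to its targets. *Kdm2b* had 106 and 107 TPM in iPSC lines 6 and 10, against 9.6 and 10.2 TPM in fibroblast lines 1 and 2, from 12645 and 11751 exon reads in iPSCs and 971 and 949 in fibroblasts. The iPSC lines were nearly equal and more than 10 times the fibroblast lines (log2 fold change 3.30, standard error 0.08, edgeR adjusted p = 0.00013), and the log2 fold change stayed between 3.04 and 3.59 under the alternatives. Genes on the opposite strand overlap both of its ends and were also called higher, *Rnf34* (78.8 and 80 TPM in iPSCs, against 26.8 and 31.3 TPM in fibroblasts) and *A930024E05Rik* (5.55 and 4.58 TPM in iPSCs, 1.08 and 1.23 TPM in fibroblasts). On exon-exon reads the log2 fold change of *Kdm2b* was 3.32.

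*Kdm2a*, the paralog with the same domains, had 42.6 and 44.4 TPM in iPSCs and 43.9 and 47.7 TPM in fibroblasts, with overlapping groups (log2 fold change -0.20, standard error 0.07, edgeR adjusted p = 0.048, and 0.08 without TMM factors). It therefore made up 28.6% and 29.4% of the pair's TPM in iPSCs, against 82.1% and 82.4% in fibroblasts. This was the largest shift of share among the 22 paralog pairs compared. *Kdm8*, whose activity as a histone demethylase is debated, had 8.92 and 8.75 TPM in iPSCs and 14.1 and 14.9 TPM in fibroblasts and missed the fold threshold (log2 fold change -0.84).

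Of the H3K4 demethylases, *Kdm5b* and *Kdm1a* were upregulated and *Kdm1b* downregulated. *Kdm5b* (JARID1B), which removes methyl groups from H3K4 at promoters and enhancers, had 79.2 and 83.8 TPM in iPSCs, against 19.7 and 22.3 TPM in fibroblasts (log2 fold change 1.83, standard error 0.07, edgeR adjusted p = 0.00021). *Kdm1a* (LSD1), the flavin-dependent demethylase of the CoREST complex, had 162 and 159 TPM in iPSCs, against 54.4 and 60.8 TPM in fibroblasts (log2 fold change 1.35, standard error 0.07, edgeR adjusted p = 0.00032). *Kdm1a* was the most abundant demethylase in iPSCs. Its relative *Kdm1b* (LSD2), known for setting maternal imprints in oocytes, had 10.7 and 11.4 TPM in iPSCs, against 19.2 and 21.4 TPM in fibroblasts (log2 fold change -1.01, standard error 0.09, edgeR adjusted p = 0.0011). This call was at the threshold: the log2 fold change was -0.99 without iPSC line 6, -0.72 without TMM factors and -0.79 on exon-exon reads. *Kdm1a* held 93.8% and 93.3% of the TPM of this pair in iPSCs, against 73.9% in each fibroblast line.

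The other H3K4 demethylases were within 2-fold and not called. *Kdm5c*, the X-linked family member, had 89.7 and 92.8 TPM in iPSCs and 84.1 and 92.3 TPM in fibroblasts, with overlapping groups (log2 fold change -0.08, standard error 0.07, edgeR adjusted p = 0.34, and 0.21 without TMM factors). *Kdm5a*, a binding partner of the retinoblastoma protein, had 19.9 and 19.2 TPM in iPSCs and 15.5 and 17.5 TPM in fibroblasts (log2 fold change 0.11, standard error 0.07, edgeR adjusted p = 0.22). Its groups were apart, and without TMM factors its log2 fold change was 0.40 (edgeR adjusted p = 0.01). Of the summed TPM of *Kdm5b* and *Kdm5c*, *Kdm5b* held 46.9% and 47.4% in iPSCs, against 19% and 19.5% in fibroblasts.

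*Kdm6a* (UTX), an X-linked H3K27 demethylase that sits in the complexes of *Kmt2c* and *Kmt2d*, had 45 and 46.5 TPM in iPSCs, against 14.2 and 16 TPM in fibroblasts (log2 fold change 1.47, standard error 0.07, edgeR adjusted p = 0.00028). *Kdm6b* (JMJD3), the more abundant H3K27 demethylase in both cell types, had 110.4 and 108 TPM in iPSCs and 58.6 and 66.9 TPM in fibroblasts, a change within 2-fold (log2 fold change 0.67, standard error 0.07, edgeR adjusted p = 0.0016). Neither gene had overlapping groups. *Kdm4c* (JMJD2C), which removes methyl groups from H3K9 and H3K36, had 43.6 and 46.2 TPM in iPSCs, against 14.1 and 17.9 TPM in fibroblasts (log2 fold change 1.36, standard error 0.10, edgeR adjusted p = 0.00063). *Kdm4a*, the most abundant H3K9 demethylase, had 128 and 137 TPM in iPSCs and 96.9 and 117 TPM in fibroblasts (log2 fold change 0.18, standard error 0.08, edgeR adjusted p = 0.11). *Kdm3a* (JMJD1A), an H3K9 demethylase that acts in mouse spermatogenesis and sex determination, had 54.7 and 52.6 TPM in iPSCs and 25.5 and 26.2 TPM in fibroblasts. At a log2 fold change of 0.92 it missed the threshold, and it was past it without TMM factors (1.21), with upper-quartile factors (1.10) and on exon-exon reads (1.09). *Kdm3b*, *Kdm4b* and *Kdm7a* had log2 fold changes of -0.20, -0.15 and -0.48.

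**Figure D2:**
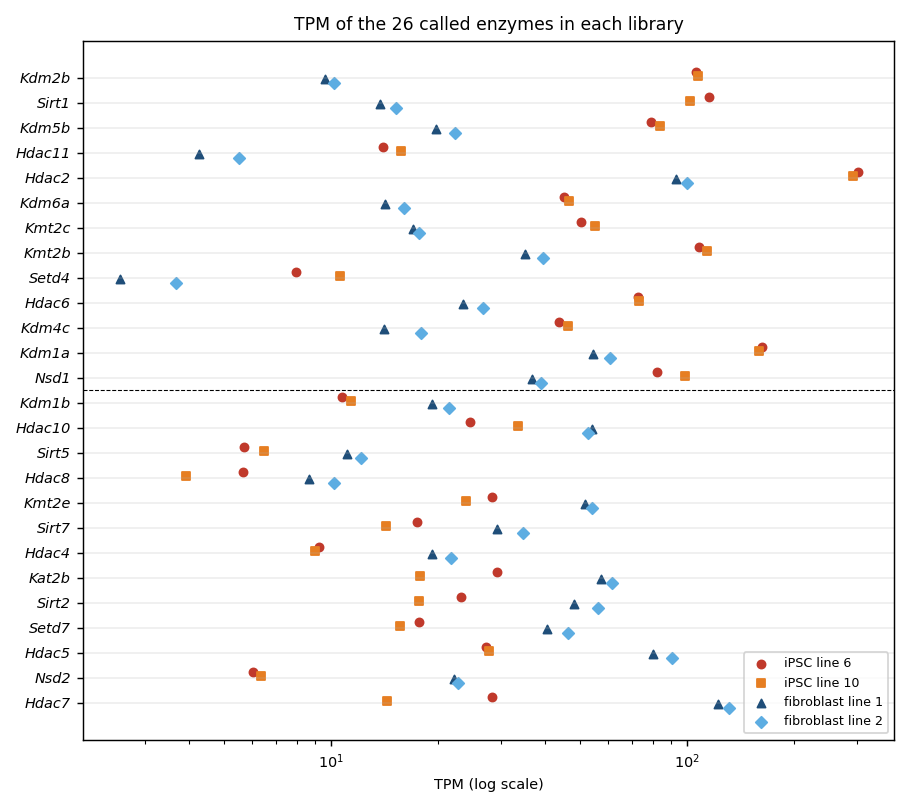
TPM (log scale) of the 26 called enzymes in iPSC lines 6 and 10 (red circles, orange squares) and fibroblast lines 1 and 2 (dark triangles, light diamonds), with the 13 higher in iPSCs above the dashed line and the 13 lower below it. The groups do not overlap in any row, as for 86.5% of all genes tested, and these rows were picked by fold and adjusted p. The iPSC lines lie furthest apart for *Hdac7*, at 28.3 and 14.4 TPM.

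The acetyltransferases, the smallest of the 4 kinds, had 0 higher and 1 lower of 8 by edgeR, where 27.2% and 22.4% of all genes were called. Their log2 fold changes ran from -1.46 to 0.97. DESeq2 gave the same counts, limma on log2 TPM gave 1 higher and 1 lower, and 4 higher and 1 lower had an unadjusted p under 0.05 in edgeR. *Kat2b* (PCAF) and *Kat2a* (GCN5) are alternative catalytic subunits of the SAGA and ATAC complexes. *Kat2b* had 29.3 and 17.8 TPM in iPSCs, against 57.2 and 61.5 TPM in fibroblasts (log2 fold change -1.46, standard error 0.26, edgeR adjusted p = 0.0076). Its call was lost in the test against a fold of 2 (edgeR glmTreat adjusted p = 0.068). *Kat2a*, the most abundant of its class, had 88.2 and 98.1 TPM in iPSCs and 54.5 and 62.6 TPM in fibroblasts (log2 fold change 0.54, standard error 0.08, edgeR adjusted p = 0.0043, within 2-fold). The pair was near even in fibroblasts, where *Kat2a* held 48.8% and 50.4% of its TPM, whereas it held 75.1% and 84.6% in iPSCs. *Kat7* (HBO1), a MYST enzyme that acetylates histones H3 and H4, had 116 and 113 TPM in iPSCs and 50.8 and 56.2 TPM in fibroblasts, at the edge of the threshold (log2 fold change 0.97, standard error 0.07, edgeR adjusted p = 0.0006). It was called higher without TMM factors (1.25), with upper-quartile factors (1.15) and on exon-exon reads (1.01). *Kat5* (TIP60), *Kat8* (MOF), *Kat14*, *Kat6a* and *Kat6b* had log2 fold changes from 0.03 to 0.58.

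Deacetylases had 4 higher and 8 lower calls of 18, where 27.2% and 22.4% of all genes were called. Without TMM factors 5 were higher and 4 lower (32.5% and 17.1% of all genes), and with upper-quartile factors 4 of each (30.3% and 19.0% of all genes). Class I HDACs, the nuclear enzymes of the Sin3, NuRD, CoREST and NCoR complexes, had 1 gene higher and 1 lower of 4. They summed to 509 and 500 TPM in iPSCs and 258 and 283 TPM in fibroblasts, mostly from *Hdac2* and *Hdac1*. *Hdac2* was the most abundant of the 66 enzymes in iPSCs, with 301 and 292 TPM in iPSCs, against 92.8 and 99.7 TPM in fibroblasts (log2 fold change 1.49, standard error 0.07, edgeR adjusted p = 0.00029). Its partner *Hdac1* had 151 and 156 TPM in iPSCs and 79.1 and 90.6 TPM in fibroblasts, within 2-fold (log2 fold change 0.73, standard error 0.07, edgeR adjusted p = 0.0011, and 1.02 without TMM factors). Both had the groups apart, and *Hdac1* held 33.5% and 34.9% of the pair's TPM in iPSCs, against 46% and 47.6% in fibroblasts. *Hdac3*, the NCoR enzyme, had 51.6 and 47.9 TPM in iPSCs and 77.8 and 82.2 TPM in fibroblasts (log2 fold change -0.82). *Hdac8*, an X-linked enzyme that deacetylates cohesin, had 5.65 and 3.91 TPM in iPSCs, against 8.66 and 10.2 TPM in fibroblasts (log2 fold change -1.10, standard error 0.24, edgeR adjusted p = 0.013). The *Hdac8* call was lost on gene reads (-0.87), on exon-exon reads (-0.73), without TMM factors (-0.82), without iPSC line 10 (-0.86) and without fibroblast line 1 or 2 (edgeR adjusted p = 0.063 and 0.078).

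The 4 class IIa HDACs bind MEF2 transcription factors, shuttle between nucleus and cytoplasm and have little catalytic activity of their own. Of the 4 genes, 3 were downregulated (22.4% of all genes), also without TMM factors (17.1% of all genes) and with upper-quartile factors (19.0% of all genes). The class summed to 65.9 and 52.2 TPM in iPSCs and 222 and 244 TPM in fibroblasts. *Hdac7*, on chromosome 15 from 97792664 to 97844502, had 28.3 and 14.4 TPM in iPSC lines 6 and 10, against 122 and 131 TPM in fibroblast lines 1 and 2 (log2 fold change -2.69, standard error 0.36, edgeR adjusted p = 0.003). *Hdac5* had 27.2 and 27.7 TPM in iPSCs, against 80.1 and 90.4 TPM in fibroblasts (log2 fold change -1.76, standard error 0.07, edgeR adjusted p = 0.00021), and *Hdac4* had 9.24 and 8.99 TPM in iPSCs, against 19.2 and 21.7 TPM in fibroblasts (log2 fold change -1.29, standard error 0.07, edgeR adjusted p = 0.00037). The groups were apart for all 3. *Hdac7* was the class member with unequal iPSC lines, which differed 1.96-fold, while *Hdac5* and *Hdac4* differed 0.981-fold and 1.03-fold. The lines differed 1.98-fold in the summed fibroblast markers. Single markers ranged from *Postn*, with 247 and 203 TPM in lines 6 and 10, to *Lum*, with 478 and 68.1 TPM. The part of fibroblast RNA in the level of *Hdac7* was not tested. The log2 fold change of *Hdac7* was -3.29 without line 6 and -2.29 without line 10.

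The class IIb enzymes *Hdac6* and *Hdac10* act mainly outside the nucleus, on tubulin and on polyamines. *Hdac6*, an X-linked gene, had 72.6 and 73.1 TPM in iPSCs, against 23.5 and 26.7 TPM in fibroblasts (log2 fold change 1.41, standard error 0.07, edgeR adjusted p = 0.00029). *Hdac10* had 24.5 and 33.5 TPM in iPSCs, against 54.1 and 52.6 TPM in fibroblasts (log2 fold change -1.02, standard error 0.17, edgeR adjusted p = 0.0063). *Hdac10* was not called without iPSC line 6 (-0.83), without fibroblast line 1 (-0.95), without TMM factors (-0.73) or on exon-exon reads (-0.84). *Hdac6* held 74.8% and 68.6% of the TPM of both in iPSCs, against 30.3% and 33.7% in fibroblasts, so the more abundant of them was not the same gene in the cell types. *Hdac11*, the only class IV enzyme, which removes fatty acyl groups as well, had 14 and 15.7 TPM in iPSCs, against 4.25 and 5.51 TPM in fibroblasts (log2 fold change 1.49, standard error 0.17, edgeR adjusted p = 0.0018).

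*Sirt1* was the sirtuin with a strong increase. This nuclear deacetylase of histones, p53 and other factors lies on chromosome 10 from 63319005 to 63381704 and had 115 and 102 TPM in iPSCs, against 13.7 and 15.2 TPM in fibroblasts. Its log2 fold change was 2.78 (standard error 0.10, edgeR adjusted p = 0.00019), between 2.56 and 3.07 under the alternatives, and it averaged 108 ± 8.96 TPM in iPSCs, against 14.4 ± 1.03 TPM in fibroblasts (SD, n = 2 each). The other sirtuins that passed the threshold were lower in iPSCs. *Sirt2*, a mainly cytoplasmic deacetylase of tubulin and other proteins, had 23.2 and 17.7 TPM in iPSCs, against 48.1 and 56.1 TPM in fibroblasts (log2 fold change -1.47, standard error 0.16, edgeR adjusted p = 0.0017). *Sirt7*, a nucleolar enzyme, had 17.4 and 14.3 TPM in iPSCs, against 29.3 and 34.5 TPM in fibroblasts (log2 fold change -1.14, standard error 0.14, edgeR adjusted p = 0.0022), and *Sirt5*, the mitochondrial desuccinylase, had 5.68 and 6.5 TPM in iPSCs, against 11.1 and 12.1 TPM in fibroblasts (log2 fold change -1.05, standard error 0.13, edgeR adjusted p = 0.0023). The groups did not overlap for these 3 genes. The call of *Sirt7* was lost without iPSC line 10 (-1.0), without TMM factors (-0.85) and with upper-quartile factors (-0.96), and that of *Sirt5* without iPSC line 6 (-0.98), without TMM factors (-0.77) and with upper-quartile factors (-0.87). *Sirt3*, the main mitochondrial deacetylase, had 10.1 and 10.1 TPM in iPSCs and 9.95 and 9.99 TPM in fibroblasts (log2 fold change -0.11, standard error 0.12, edgeR adjusted p = 0.45, and 0.18 without TMM factors). *Sirt6*, a nuclear enzyme at chromatin and telomeres, had overlapping groups (39.9 and 42.2 TPM in iPSCs, against 40 and 46.6 TPM in fibroblasts), and *Sirt4* had a log2 fold change of -0.90.

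**Figure D3:**
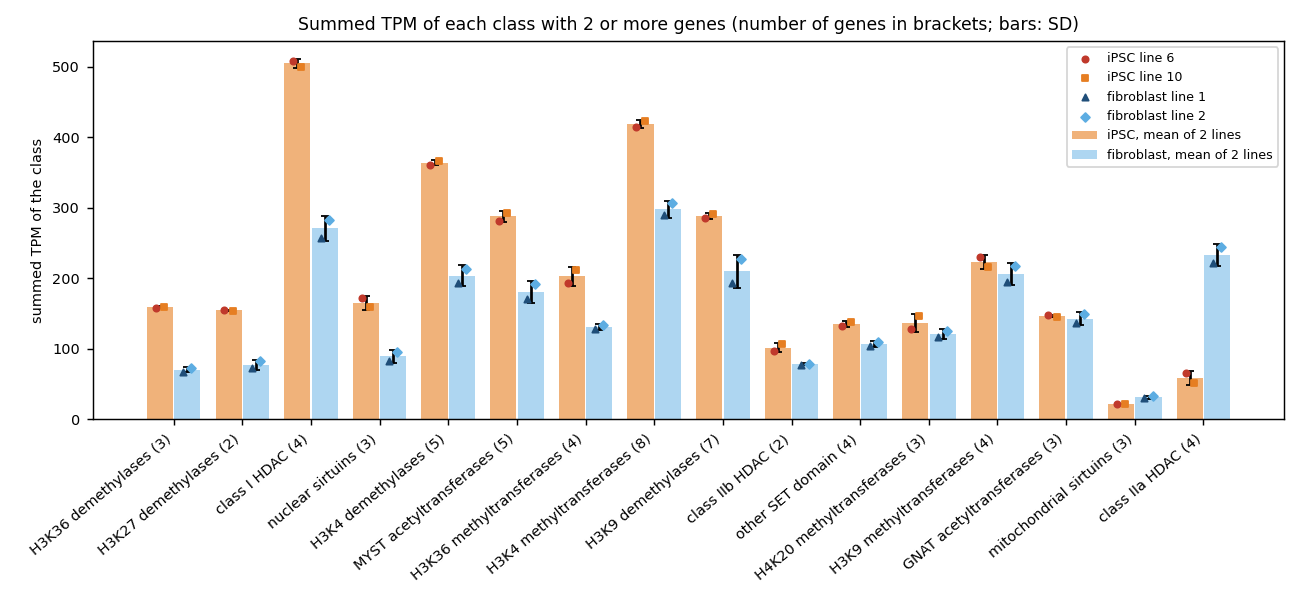
Summed TPM of each class with at least 2 genes, as the mean of 2 iPSC lines (orange bars) and of 2 fibroblast lines (blue bars) with SD and the value of each line, in order of the ratio of the means. The class I HDACs reached 505 TPM in iPSCs, against 271 TPM in fibroblasts, and those of class IIa 59 TPM in iPSCs, against 233 TPM in fibroblasts.

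For classes with at least 2 genes, the order of the ratios of summed TPM ran from the H3K36 demethylases, with 159 ± 1.26 TPM in iPSCs, against 70.2 ± 3.62 TPM in fibroblasts (SD, n = 2 each), a ratio of 2.26, to the class IIa HDACs with a ratio of 0.253. The first ratio rested on *Kdm2b* alone, since *Kdm2a* and *Kdm8* were not called. The class sums are descriptions without a test, on TPM that carries no TMM factors.

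In 3 of the 22 paralog pairs the more abundant gene was not the same in iPSCs and fibroblasts, namely *Kdm2a* and *Kdm2b*, *Kmt2c* and *Kmt2d*, and *Hdac6* and *Hdac10*. Shares within a pair do not depend on how libraries are scaled. They compare different genes through reads placed on the *M. musculus* build, and unequal placing of the genes of a pair was not tested. Of the summed TPM of *Kdm3a* and *Kdm3b*, *Kdm3a* held 70.4% and 69.2% in iPSCs, against 52.2% and 50.8% in fibroblasts. Shares that differed little were those of *Kat6a* within *Kat6a* and *Kat6b* (81.8% and 82.4% in iPSCs, 81.2% and 79.5% in fibroblasts) and of *Kdm4a* within *Kdm4a* and *Kdm4b* (81.2% and 83.6% in iPSCs, 79.1% and 78.5% in fibroblasts).

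**Figure D4:**
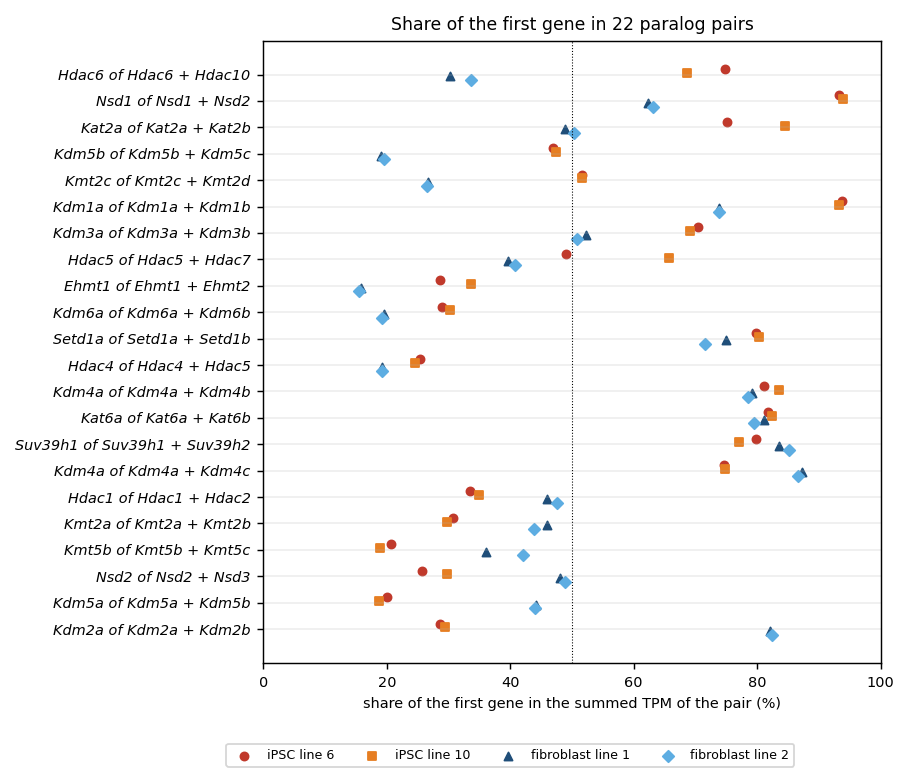
Share (%) of the first-named gene in the summed TPM of each of 22 paralog pairs in iPSC lines 6 and 10 (red circles, orange squares) and fibroblast lines 1 and 2 (dark triangles, light diamonds), ordered by the difference between the groups, with a dotted line at 50%. *Hdac6* at the top goes to 74.8% and 68.6% in iPSCs against 30.3% and 33.7% in fibroblasts, and *Kdm2a* at the bottom to 28.6% and 29.4% in iPSCs against 82.1% and 82.4% in fibroblasts.

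The iPSC lines were close to each other for most enzymes, and 2 of the 66, *Hdac7* and *Kat2b*, differed more than 1.5-fold between them (1.96-fold and 1.64-fold, higher in line 6). Of the 13 enzymes lower in iPSCs, 8 were higher in line 6 than in line 10, as were 68.9% of all genes called lower and above 0 TPM in both iPSC lines. Of the 13 enzymes higher in iPSCs, 3 were higher in line 6, compared with 29.3% of all genes called higher. *Hdac7* stood at 22.3% and 11.4% of its fibroblast mean in lines 6 and 10, below the 28.2% and 14.2% of the summed fibroblast markers, and *Kat2b* at 49.3% and 30%. *Nsd2* stood at 26.8% and 28.4%, and *Hdac5* at 31.9% and 32.6%. How much of these levels came from other cells in the iPSC cultures was not tested.

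Between the fibroblast lines, 58 of the 66 enzymes had a higher TPM in line 2, with a median ratio of 1.11. A pair of RNA genes took 68830 TPM (*CT010467.1*) and 20579 TPM (*Mir6236*) in fibroblast line 1, and 2797 and 1548 TPM in line 2, which lowers the TPM of the other genes in line 1. They were named after their values were seen.

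Reads over exon-exon junctions were used as a further measure after the data had been seen, since they leave out unspliced RNA. Of 65 enzymes tested in this way, 16 were higher and 11 lower (26.2% and 22.0% of all genes). All 26 enzymes called on exon reads had the same sign, and 21 had the same call. The calls of *Hdac8*, *Hdac10*, *Kdm1b*, *Sirt5* and *Kmt2e* were lost, and *Kat7*, *Kdm3a* and *Setd2* (1.05) were called higher and *Sirt4* (-1.18), *Kdm8* (-1.13) and *Suv39h2* lower. The gene bodies of 22 enzymes overlap another gene with at least 1 TPM in a library, 8 of them among the called ones: *Kdm2b*, *Kdm1a*, *Kdm1b*, *Kmt2e*, *Nsd2*, *Sirt2*, *Sirt7* and *Hdac7*. The shared stretches differ in length. That of *Hdac7* with *Slc48a1* runs only from 97792664 to 97792692 and that of *Nsd2* with *Nelfa* from 33897916 to 33897975. That of *Kdm1a* with *Luzp1* runs from 136550540 to 136554780. Reads in the shared stretches cannot be told apart without strand, and for *Sirt7*, whose neighbour *Mafg* lies on the same strand, not by strand either.

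**Figure D5:**
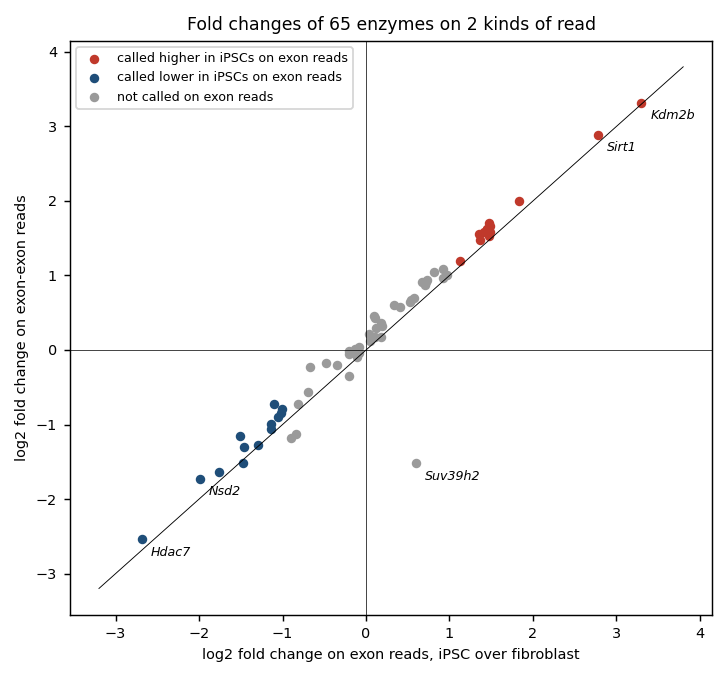
Log2 fold change (iPSC over fibroblast) on exon-exon reads against that on all exon reads for 65 enzymes, with the line of equal values. *Suv39h2* lies furthest from the line, at 0.60 on exon reads and -1.52 on exon-exon reads. Other points lie nearer to it, with smaller departures such as *Kmt5b* at -0.67 and -0.23.

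Of the 66 enzymes, 5 are X-linked. *Kdm6a* and *Hdac6* were higher, *Hdac8* was lower, and *Kdm5c* and *Suv39h1* were not called.

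The other genes of the same machinery were read from 8 lists with 105 genes. Of these, 24 were higher and 8 lower in iPSCs, where 27.2% and 22.4% of all genes were called, with a median log2 fold change of 0.25, against 0.11 for the enzymes and 0.08 for all genes tested. For lists with 0 calls in a direction, edgeR still gave genes in that direction at an unadjusted p under 0.05 (2 lower COMPASS genes, 5 lower corepressor genes, 2 lower H3K9 silencing genes and 2 higher bromodomain genes), and DESeq2 and limma on log2 TPM gave 0 as well. Of 10 COMPASS core subunits and cofactors of H3K4 methyltransferase complexes, 3 were higher and 0 lower. The core subunit *Ash2l* had 244 and 261 TPM in iPSCs, against 28.1 and 30.1 TPM in fibroblasts (log2 fold change 2.99, standard error 0.07, edgeR adjusted p = 0.00014). Of 23 subunits of the HDAC corepressor complexes, 3 were higher and 0 lower, and the Sin3 subunit *Sap30* had 277 and 255 TPM in iPSCs, against 48.4 and 45.6 TPM in fibroblasts (log2 fold change 2.37, standard error 0.12, edgeR adjusted p = 0.00031). Both of these partners were higher in each iPSC line than in either fibroblast line. Of 9 genes of H3K9 silencing, 3 were higher and 0 lower. The H3K9 methyltransferase *Setdb1*, named after its value was seen, was among them, with 74.8 and 80.2 TPM in iPSCs, against 26.4 and 27.8 TPM in fibroblasts (log2 fold change 1.39, standard error 0.08, edgeR adjusted p = 0.00034). *Trim28* (KAP1), the corepressor that recruits *Setdb1*, had 2516 and 2954 TPM in iPSCs, against 221 and 244 TPM in fibroblasts (log2 fold change 3.43, standard error 0.10, edgeR adjusted p = 0.00016).

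Of 16 methyltransferases and demethylases with other names, 3 were higher and 3 lower, where 27.2% and 22.4% of all genes were called. *Prdm16*, a PR domain regulator known from brown fat, had 4.57 and 8.76 TPM in iPSCs, against 0.634 and 0.688 TPM in fibroblasts (log2 fold change 3.20, standard error 0.38, edgeR adjusted p = 0.0021), and *Hr* (hairless), an H3K9 demethylase of hair follicles, had 0.767 and 0.955 TPM in iPSCs, against 3.67 and 3.77 TPM in fibroblasts (log2 fold change -2.24, standard error 0.24, edgeR adjusted p = 0.0016). Both were low in TPM beside the enzymes above. Of 7 acetyltransferases with other names, 1 was higher and 1 lower. The nuclear receptor coactivator *Ncoa3* had 164 and 178 TPM in iPSCs, against 38.7 and 46.6 TPM in fibroblasts (log2 fold change 1.87, standard error 0.09, edgeR adjusted p = 0.00026), whereas *Ncoa1* had 5.71 and 4.05 TPM in iPSCs, against 12.4 and 13.1 TPM in fibroblasts (log2 fold change -1.52, standard error 0.20, edgeR adjusted p = 0.0031).

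Of 26 subunits of acetyltransferase complexes, 5 were higher and 2 lower, where 27.2% and 22.4% of all genes were called. *Ing5*, a subunit of the MYST complexes that reads H3K4 methylation, had 44.3 and 50 TPM in iPSCs, against 16.7 and 15.5 TPM in fibroblasts (log2 fold change 1.42, standard error 0.13, edgeR adjusted p = 0.00095), and *Msl3*, a subunit of a *Kat8* complex, had 14.9 and 14 TPM in iPSCs, against 46.4 and 53.4 TPM in fibroblasts (log2 fold change -1.91, standard error 0.10, edgeR adjusted p = 0.00034). Their catalytic partners were not called. Of 5 bromodomain readers, 0 were higher and 1 lower, *Brd9* of a SWI/SNF complex (15.4 and 13.5 TPM in iPSCs, 27.7 and 29.2 TPM in fibroblasts, log2 fold change -1.11, standard error 0.11, edgeR adjusted p = 0.0013). Of 9 arginine methyltransferases, 6 were higher and 1 lower, where 49.5% of all genes were called in either direction. *Prmt7*, which adds a single methyl group to arginine, had 166 and 167 TPM in iPSCs, against 15.6 and 18.3 TPM in fibroblasts (log2 fold change 3.17, standard error 0.08, edgeR adjusted p = 0.00014), and *Prmt2*, a nuclear receptor coactivator, had 23.1 and 18.9 TPM in iPSCs, against 37.9 and 47.2 TPM in fibroblasts (log2 fold change -1.14, standard error 0.15, edgeR adjusted p = 0.0029).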

How the data were processed

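RNA-seq libraries of *M. minutoides* iPSC lines 6 and 10 and fibroblast lines 1 and 2 were used, each group having 2 libraries. From total RNA sequenced on an Illumina instrument, the authors deposited read counts per gene (total and unique gene, exon, exon-exon and intron reads) with TPM and RPKM. The aligner is not given in the sources used here, and GRCm38 is the build in the submitters' processing notes. The deposited TPM values are exon reads over exon length scaled to the same total in each library, RPKM was not used, and the deposited fraction columns only describe the files. Whether separate animals gave the lines of each group is not stated, and the p-values then measure spread between samples that may be technical.

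Total exon reads, rather than gene reads, were tested because intron reads raised single genes. edgeR 4.0.16 in R 4.3.3 was run over all genes (filterByExpr, TMM, quasi-likelihood test, Benjamini-Hochberg adjustment), and a call needed an adjusted p under 0.05 and a fold over 2. Standard errors are the log2 fold change over the root of the F statistic. TMM factors were 1.09 and 1.12 for the iPSC lines and 0.891 and 0.92 for the fibroblast lines. Alternatives were DESeq2 1.42.0, limma 3.58.1 on log2 TPM, other scalings, filters, kinds of read and thresholds, and each library left out. The members, classes and lists were chosen with earlier results of these data known. Full statistics are given for called enzymes, the most abundant of each class, those whose call differs by kind of read, and paralogs of called ones (43 genes), and for the largest called rise and fall in each list of other genes. On simulated data with 15242 genes tested, the test called 100 of 100 genes that had been changed 4-fold, 100 of 100 at 8-fold and 13 of 15042 unchanged genes. Only 200 genes were changed there, with rises and falls balanced and none low in reads, and all genes shared a common dispersion. In the data 49.5% of all genes were called, so the simulation does not give the error rates of this comparison.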

Additional observations from a re-analysis of the deposited data

How the results depend on the processing

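With 2 libraries per group, 13 enzymes were higher and 13 lower. Counts of higher enzymes stayed within 1.5 times of this under every alternative except without a fold threshold (27). Lower enzymes numbered 7 without TMM factors, with upper-quartile factors and with limma on log2(TPM + 1), with or without a mean TPM of at least 1, 6 with glmTreat against a fold of 2, and 21 without a fold threshold. With each library left out in turn, 12 to 14 were higher and 10 to 12 lower. DESeq2 called 13 higher and 11 lower. Of the 105 partner genes, 24 were higher (38 without TMM factors, 14 with glmTreat, 51 without a fold threshold, 21 to 24 with a library left out) and 8 lower (4 without TMM factors, with upper-quartile factors, with glmTreat and with limma on log2(TPM + 1) at either filter, 5 with limma on log2(TPM + 0.1), 28 without a fold threshold, 7 to 11 with a library left out). Over all genes, 4828 were higher (3834 to 4795 with a library left out) and 3977 lower (3355 to 4343). Among the 43 enzymes with full statistics, signs turned for 6, none of which was called on exon reads with TMM factors. Without TMM factors the log2 fold changes were 0.08 for *Kdm2a*, 0.21 for *Kdm5c*, 0.20 for *Kmt2d*, 0.17 for *Kmt5a* and 0.18 for *Sirt3*. With upper-quartile factors they were 0.10 for *Kdm5c*, 0.09 for *Kmt2d* and 0.07 for *Kmt5a* and *Sirt3*. With a mean of at least 50 exon reads they were 0.02 for *Kdm5c* and 0.01 for *Kmt2d*. With limma on log2 TPM, at either pseudocount or filter, they were 0.05 for *Kdm5c*, 0.04 for *Kmt2d*, 0.01 for *Kmt5a* and 0.02 for *Sirt3*. On exon-exon reads they were 0.04 for *Kdm5c* and -1.52 for *Suv39h2*. *Suv39h2* was called lower on exon-exon reads and called higher on gene reads (1.91). The cause was not tested. No paired analysis was possible because the groups share no replicate numbers (iPSC lines 6 and 10, fibroblast lines 1 and 2).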
